A study of Mus musculus with 64 samples.

Results

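The genes described here encode the semaphorins of classes 3 to 7, their plexin and neuropilin receptors, the Eph receptor tyrosine kinases and their ephrin ligands. They were chosen by gene symbol, and 53 of the 18193 genes measured carried such a symbol. The 53 are 7 class 3, 6 class 4, 2 class 5, 4 class 6 and 1 class 7 semaphorins, 9 plexins, 2 neuropilins, 9 EphA receptors, 4 EphB receptors, 5 A-type ephrins, 3 B-type ephrins and Plxna4os1, an antisense transcript that the same symbol rule takes in. Each gene was read from the 1 of its probe sets with the highest mean over all arrays, out of 124 probe sets for the 53 genes. After a filter on low values 48 genes were tested, and 5 lay below it, namely Efna4, Epha1, Sema3b, Sema3d and Plxna4os1. Ephb2 was not analysed here.

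The samples are hippocampus and prefrontal cortex of Tg2576 mice and of wild-type littermates, all 4 months old and all from an F1 cross of C57Bl/6 and SJL. Tg2576 mice overexpress a human mutant amyloid precursor protein, in this line from prion protein gene sequences. Mice of each genotype carried a minipump for 28 days, filled with PF-04447943, which inhibits PDE9A, a phosphodiesterase that breaks down cyclic GMP, or with vehicle. The 8 groups (2 regions, 2 genotypes and 2 treatments) held 8 samples each, and each of the 64 samples was hybridised to its own array. The labels call the cortical tissue prefrontal cortex and the design text calls it frontal cortex. They do not say whether both regions came from the same mice.

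Semaphorins and ephrins tell growing axons and dendrites where to turn, stop or make a synapse. Class 3 semaphorins are secreted and mostly signal through a neuropilin that binds the ligand joined to a class A plexin that carries the signal, whereas semaphorins of the other classes are anchored in the membrane and bind plexins directly. Ephrins are bound to the cell surface, A-type by a lipid anchor and B-type by a membrane-spanning stretch, and signal in both directions when they meet an Eph receptor on another cell. In the adult hippocampus and cortex the same molecules act on dendritic spines, on synaptic plasticity and on the glial sheath around them.

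Arrays have no read depth, and the number of arrays limits the precision. Array medians lay between 90.9 and 100.69 intensity units, and arrays of the same region correlated, on the log2 scale, at no less than 0.974 in hippocampus and 0.976 in prefrontal cortex. The tissue labels were checked against marker lists. Not every list was uniform, and some dentate granule cell markers were lower in hippocampus, as counted further below. Of 12 tested CA pyramidal cell markers 11 were higher and 1 lower in hippocampus than in prefrontal cortex, of 16 cortical layer markers 3 were higher and 12 lower, and of 11 myelin markers 11 were higher and 0 lower. One array goes against its label: hippocampus Tg2576 PF-04447943 replicate 1 had a dentate granule cell marker mean of 7.20, inside the prefrontal cortex range of 7.04 to 7.60, and a cortical layer marker mean of 9.71, against 9.72 for the lowest prefrontal cortex array. In prefrontal cortex the mean of the striatal neuron markers ran from 7.98 to 11.21 and was above 8.5 on 16 of 32 arrays, the highest being wild-type vehicle replicate 5, against a range of 7.99 to 8.52 in hippocampus. Choroid plexus markers ran from 5.50 to 10.31 in hippocampus and from 4.71 to 5.71 in prefrontal cortex. All of these samples are bulk tissue, so fewer cells of a type and less RNA per cell cannot be told apart.

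The regional comparison asks which guidance genes separate adult hippocampus from prefrontal cortex. Levels are log2 intensities, and a difference is hippocampus minus prefrontal cortex averaged over the 4 conditions of genotype and treatment, tested with limma at a Benjamini-Hochberg adjusted p under 0.05 over 12954 genes. Of the 48 tested genes 28 were higher and 16 lower in hippocampus, and 4 did not pass. That is 91.7% of them, beside 72.1% of all tested genes, of which 33% were higher and 39% lower. A difference of at least 2-fold was found for 6 higher and 3 lower guidance genes, beside 2.83% of all tested genes, 1.21% higher and 1.62% lower. The median size of the difference, whatever its sign, was 0.45 for the guidance genes and 0.16 over all genes.

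**Figure D1:**
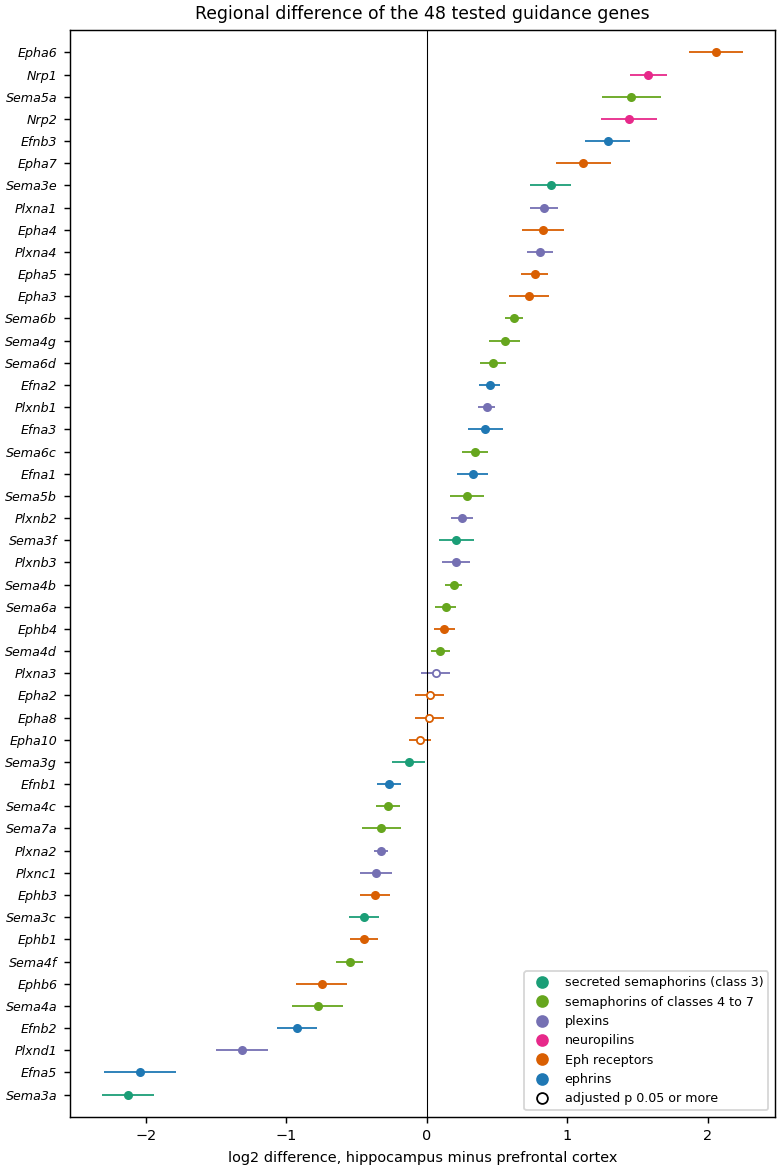
Log2 difference, hippocampus minus prefrontal cortex, of the 48 tested guidance genes (32 arrays per region), coloured by family. Bars are 95% intervals by a normal approximation to the limma standard error, and open points mark the 4 genes that did not pass. Epha6 at 2.05 and Nrp1 at 1.58 lie at the top, and Efna5 at -2.04 and Sema3a at -2.13 at the bottom.

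The Eph receptors split by class: 5 of 8 tested EphA receptors were higher in hippocampus and 0 lower, whereas 1 of 4 EphB receptors was higher and 3 were lower. Epha6, an EphA receptor of forebrain neurons, had a lowest, median and highest level of 6.74, 8.85 and 9.37 on the hippocampal arrays, against 6.03, 6.80 and 7.27 in prefrontal cortex. All hippocampal arrays but 1, the array that goes against its label, lay above every prefrontal cortex array. The difference was 2.05 ± 0.10 (SE, n = 32 arrays per region, limma adjusted p = 3.14e-27), a 4.15-fold higher level. Epha7, a repellent receptor for A-type ephrins, ran over 8.45, 10.27 and 10.83 in hippocampus, against 8.43, 9.08 and 9.61 in prefrontal cortex. It was 2.16-fold higher (1.11 ± 0.10, SE, limma adjusted p = 3.26e-15) with overlapping arrays.

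Epha4, which binds ephrins of both types and on spines meets an ephrin of astrocytes, was higher by 0.83 ± 0.08 (SE, limma adjusted p = 6.36e-15). Its levels were 9.65, 11.27 and 11.57 in hippocampus and 9.52, 10.42 and 10.74 in prefrontal cortex. Epha5 was higher by 0.77 (0.29 to 0.77 over its 4 probe sets) and Epha3 by 0.73. Both are receptors that read gradients of A-type ephrins during axon mapping. Epha2 at 0.02, Epha8 at 0.02 and Epha10, which lacks an active kinase, at -0.05 did not pass, with 95% intervals of -0.08 to 0.13, -0.09 to 0.12 and -0.13 to 0.03.

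The EphB receptors that were lower in hippocampus were Ephb6, Ephb1 and Ephb3. Ephb6, whose kinase domain is inactive, had levels of 8.88, 9.35 and 10.80 in hippocampus, against 8.73, 10.13 and 11.02 in prefrontal cortex, and was lower by 1.68-fold (-0.75 ± 0.09, SE, limma adjusted p = 1.8e-10). Ephb1, a receptor that clusters with NMDA receptors at synapses, was at -0.45, and Ephb3 was at -0.37. Ephb4, known from blood vessels, was higher by 0.12 (limma adjusted p = 0.00379).

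Of the A-type ephrins Efna2 (0.45), Efna3 (0.42) and Efna1 (0.33) were higher in hippocampus and Efna5 was lower. Efna5, a repellent ligand of the EphA receptors, had levels of 6.48, 7.46 and 9.59 in hippocampus, against 8.58, 9.57 and 10.11 in prefrontal cortex. The highest hippocampal array was again the one against its label, and without it no hippocampal array reached the cortical range. Efna5 was 4.12-fold lower (-2.04 ± 0.13, SE, limma adjusted p = 2.5e-21), opposite in sign to the EphA receptors that passed.

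The B-type ephrins differed among themselves. Efnb3, a ligand for EphB receptors and Epha4, was at 9.57, 10.36 and 10.67 in hippocampus, against 8.23, 8.94 and 10.07 in prefrontal cortex, where wild-type vehicle replicate 5 was the highest array. It was 2.44-fold higher (1.29 ± 0.08, SE, limma adjusted p = 9.89e-22). Efnb2 was 1.90-fold lower, with levels of 8.17, 9.15 and 9.94 in hippocampus and 9.72, 9.98 and 10.48 in prefrontal cortex, and Efnb1 was at -0.27.

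Both neuropilins were higher in hippocampus. Nrp1, the binding receptor for Sema3a, had levels of 10.28, 10.82 and 11.16 in hippocampus, against 8.59, 9.20 and 10.07 in prefrontal cortex. No array of one region reached the range of the other, and the difference of 1.58 ± 0.07 (SE, limma adjusted p = 1.38e-29) is a 2.98-fold higher level. Nrp2, the binding receptor for Sema3f, had levels of 8.66, 8.98 and 9.27 in hippocampus and 6.59, 7.37 and 8.92 in prefrontal cortex. It was 2.71-fold higher (1.44 ± 0.10, SE, limma adjusted p = 2.76e-19). Over its 4 probe sets above the filter level the difference ran from 0.36 to 1.44. The standard deviation of the Nrp2 level was 0.55 over the prefrontal cortex arrays and 0.16 over the hippocampal ones.

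Class 3 semaphorins, the ligands of the neuropilins, gave 2 higher and 3 lower genes of 5 tested. Sema3a, which collapses growth cones, had the largest negative difference of the 48, with levels of 6.41, 6.88 and 8.70 there, against 8.37, 9.11 and 9.78 in prefrontal cortex. The level of 8.70 was on the array against its label, and every other hippocampal array lay below every prefrontal cortex array. Sema3a was 4.37-fold lower (-2.13 ± 0.09, SE, limma adjusted p = 5.79e-29), while the neuropilin it binds was higher. Sema3e, which differs from its class in binding Plxnd1 without a neuropilin, had levels of 8.79, 9.71 and 10.08 in hippocampus and 8.20, 8.82 and 9.51 in prefrontal cortex. It was 1.84-fold higher (0.88 ± 0.07, SE, limma adjusted p = 2.99e-16).

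Sema3c, a chemoattractant for cortical axons, was lower by 1.36-fold, with a difference of -0.44, and Sema3g was at -0.13 (limma adjusted p = 0.044). Sema3f, the Nrp2 ligand, is the uncertain case. Its probe set with the highest mean was at 0.21 and its 2 others lay below 0, the lowest at -0.33, all past the threshold. Of the 30 genes with more than 1 probe set above the filter level it was the 1 whose called probe sets disagreed in sign.

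Plexins gave 5 higher and 3 lower genes of 9. Plxnd1, the Sema3e receptor, had levels of 7.10, 7.67 and 9.36 in hippocampus, against 8.63, 9.07 and 9.63 in prefrontal cortex, the hippocampal maximum again being Tg2576 PF-04447943 replicate 1. It was 2.49-fold lower (-1.32 ± 0.09, SE, limma adjusted p = 4.12e-19), so this receptor and its ligand lay on opposite sides. Plxna1 (0.83) and Plxna4 (0.80), signalling partners of neuropilins, were higher, and the levels of Plxna1 did not overlap between regions. Plxna2, a receptor for class 6 semaphorins, was lower by 0.33 on the log2 scale, and Plxnc1, the Sema7a receptor, was at -0.36. Plxnb1 (0.42), Plxnb2 (0.25) and Plxnb3 (0.21), which take class 4 and class 5 semaphorins, were higher. Plxna3 was at 0.06 (95% interval -0.04 to 0.17) and did not pass.

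Among the membrane-bound semaphorins, 2 of 2 class 5 and 4 of 4 class 6 genes were higher in hippocampus, class 4 divided into 3 higher and 3 lower, and Sema7a was lower. Sema5a, which in mouse limits synapse number on dentate granule cells, had levels of 7.39, 9.59 and 10.26 in hippocampus, against 7.35, 8.18 and 8.85 in prefrontal cortex. On 31 of 32 hippocampal arrays it lay above the cortical mean of its condition, the exception being the array against its label. It was 2.74-fold higher (1.45 ± 0.11, SE, limma adjusted p = 1.46e-18).

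The class 6 genes Sema6b (0.62), Sema6d (0.47), Sema6c (0.34) and Sema6a (0.14) are ligands of class A plexins, and the Sema6b levels of the regions did not overlap. In class 4, whose members bind mainly class B plexins, Sema4g (0.55), Sema4b (0.19) and Sema4d (0.10) were higher. Sema4a was lower, with levels of 8.13, 8.46 and 10.64 in hippocampus and 8.72, 9.38 and 10.09 in prefrontal cortex (-0.78 ± 0.09, SE, limma adjusted p = 5.15e-11). Sema4f (-0.55, with its other probe set at -0.06) and Sema4c (-0.28) were lower too. Sema7a, a lipid-anchored semaphorin, was at -0.32, with a standard deviation of 0.37 over the prefrontal cortex arrays and 0.14 over the hippocampal ones.

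**Figure D2:**
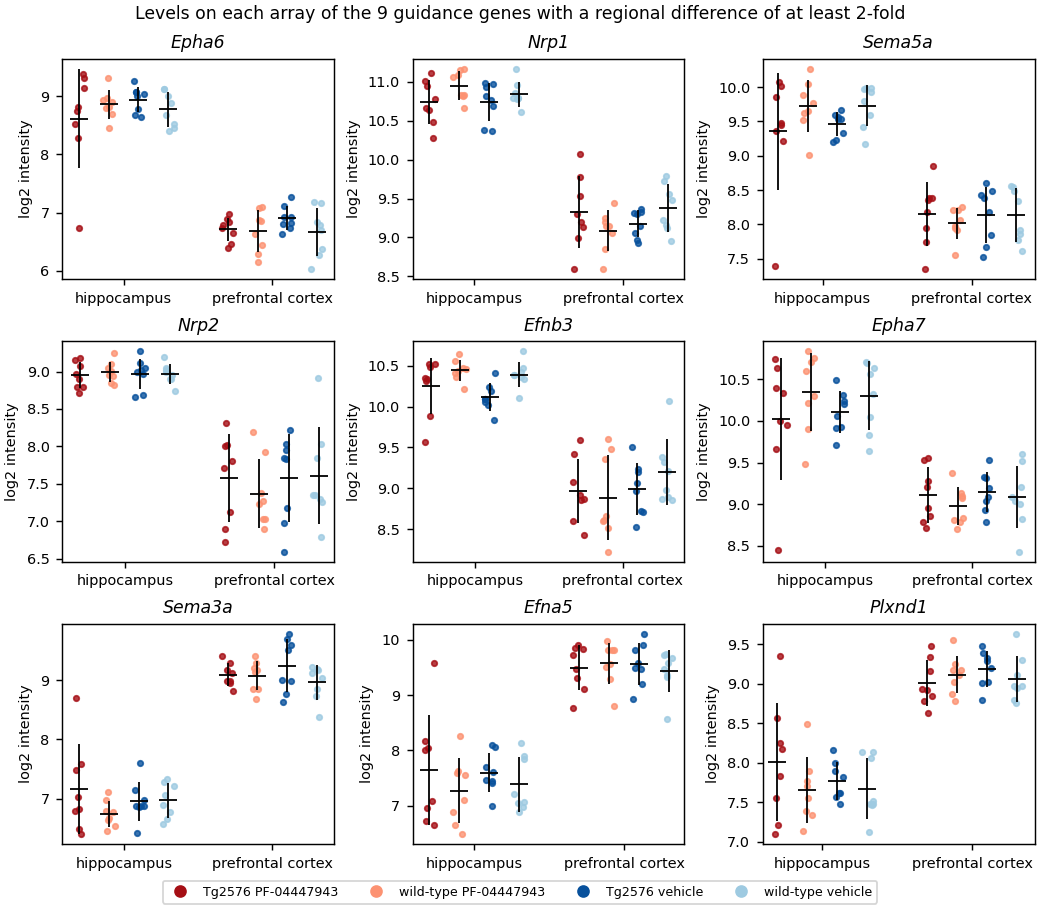
Log2 intensity of the 9 guidance genes with a regional difference of at least 2-fold on each of 64 arrays, in hippocampus on the left and prefrontal cortex on the right of each panel, coloured by genotype and treatment, with bars for the group mean and SD (n = 8). The single Tg2576 PF-04447943 array in hippocampus at 6.74 for Epha6, 8.70 for Sema3a and 9.59 for Efna5 is replicate 1.

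No array of one region reached the range of the other for 3 genes, Nrp1, Plxna1 and Sema6b, all higher in hippocampus, beside 1.17% of all tested genes with such a gap in that direction and 0.718% in the other. Without hippocampus Tg2576 PF-04447943 replicate 1 the count was 5 higher, adding Epha6 and Sema5a, and 3 lower, Sema3a, Efna5 and Plxnd1, beside 2.4% and 2.01% of all tested genes. This array and the 16 of 32 cortical arrays with a striatal marker mean above 8.5, 17 arrays, were also left out together. The setting was added after the data were seen. It selects arrays by striatal markers, so genes that vary with those markers, as given further below, move with the choice. They include Efnb3, Nrp2, Efna5, Sema7a and Ephb3. Of the 48 genes 44 then passed, beside 71.3% of all tested genes, with Plxna3 (0.15) gained and Sema4d (0.04) lost. Sema7a was then at -0.56 and Ephb3 at -0.57, both over 1.5 times the size with all arrays. Epha6 was then at 2.22, Nrp2 at 1.81, Efnb3 at 1.57, Sema3a at -2.33 and Efna5 at -2.39.

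The difference was also taken within each condition, 8 arrays against 8. Among PF-04447943-treated Tg2576 mice 38 of 48 genes passed (41.4% of all tested genes), and among PF-04447943-treated wild-type mice 39 (43.1%). Under vehicle 36 passed in Tg2576 mice (54.9%) and 35 in wild-type mice (44.9%). All 44 genes called over the 4 conditions had the same sign in each of them, as did 92.4% of all genes so called. In each of the 4 conditions 33 of the 48 were called, 19 higher and 14 lower, beside 28.4% of all tested genes. Epha6 differed by 1.90 in PF-04447943-treated Tg2576 mice and by 2.04 to 2.18 in the other conditions, Nrp1 by 1.41 against 1.46 to 1.86, and Sema5a by 1.20 against 1.32 to 1.70. Sema3a differed by -1.92 in PF-04447943-treated Tg2576 mice, against -2.32 to -1.98 in the other conditions, and Plxnd1 by -1.01, against -1.46 to -1.39. For Nrp2 the values were 1.37 in PF-04447943-treated Tg2576 mice, against 1.36 to 1.63 in the other conditions. For Efnb3 they were 1.28, against 1.12 to 1.56, so no condition stood at the same end for all of these genes. The treated Tg2576 group includes the hippocampal array against its label. Without the 17 arrays left out together above Epha6 was at 2.31 in that group, against 2.11 to 2.25 in the others. Sema5a was at 1.39 (1.09 to 1.77 in the others) and Sema3a at -2.27 (-2.52 to -2.09). Nrp1, at 1.29 (1.46 to 1.85), and Plxnd1, at -1.10 (-1.58 to -1.50), stayed smallest in size there.

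The promoters of 4 of the genes with a regional difference of at least 2-fold are printed as examples. Epha7 and Sema5a had the largest positive slopes on the dentate markers, given further below. Sema3a and Efna5 had the largest negative regional differences. Each line gives the 250 bases before and the 50 after a RefSeq start on GRCm38.p6, 5′ to 3′ on the strand of the gene, with CG dinucleotides in capitals. Epha7 lies at chr4:28812881-28813180 on the plus strand (the first of 2 starts listed) and Sema5a at chr15:32244563-32244862 on the plus strand, and both are higher in hippocampus. Sema3a lies at chr5:13396534-13396833 on the plus strand and Efna5 at chr17:62881268-62881567 on the minus strand, and both are lower.
Epha7: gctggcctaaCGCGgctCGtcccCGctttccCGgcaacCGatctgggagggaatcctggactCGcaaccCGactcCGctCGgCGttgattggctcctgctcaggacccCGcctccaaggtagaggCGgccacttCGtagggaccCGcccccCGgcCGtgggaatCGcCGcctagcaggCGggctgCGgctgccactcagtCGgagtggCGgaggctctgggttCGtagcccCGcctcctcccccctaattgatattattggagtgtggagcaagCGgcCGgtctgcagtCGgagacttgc
Sema5a: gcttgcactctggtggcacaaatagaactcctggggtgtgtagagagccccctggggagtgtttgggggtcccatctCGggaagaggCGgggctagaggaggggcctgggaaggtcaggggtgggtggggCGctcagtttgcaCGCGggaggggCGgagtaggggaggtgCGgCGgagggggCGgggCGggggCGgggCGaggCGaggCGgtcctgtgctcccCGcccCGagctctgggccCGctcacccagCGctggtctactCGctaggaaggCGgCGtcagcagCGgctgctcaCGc
Sema3a: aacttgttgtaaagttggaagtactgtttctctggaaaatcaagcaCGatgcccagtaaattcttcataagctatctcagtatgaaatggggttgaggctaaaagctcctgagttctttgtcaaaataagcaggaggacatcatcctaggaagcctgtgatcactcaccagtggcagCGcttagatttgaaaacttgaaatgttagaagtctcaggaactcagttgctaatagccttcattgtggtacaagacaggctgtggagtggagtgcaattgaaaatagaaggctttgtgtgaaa
Efna5: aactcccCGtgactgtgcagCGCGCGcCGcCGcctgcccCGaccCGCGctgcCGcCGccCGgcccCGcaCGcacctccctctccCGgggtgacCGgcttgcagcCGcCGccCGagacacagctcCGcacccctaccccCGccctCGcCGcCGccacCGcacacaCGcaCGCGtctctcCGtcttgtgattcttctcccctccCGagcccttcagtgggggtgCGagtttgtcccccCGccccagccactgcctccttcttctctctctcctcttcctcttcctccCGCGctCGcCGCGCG
The Efna5 window held 38 CG dinucleotides, the Epha7 window 28, the Sema5a window 23 and the Sema3a window 2, so the CG-richest and the CG-poorest of the 4 both belong to genes lower in hippocampus. RefSeq listed 60 promoters for 46 of the 53 genes. Their median was 19.5 CG dinucleotides, beside 13 in the promoters of all protein-coding genes. The core of the cyclic AMP response element, TGACG on either strand, was in 15% of the 60, beside 23.6% of protein-coding promoters. It was in 2 of 33 promoters of genes higher in hippocampus and in 5 of 20 of genes lower, and of the 4 printed it is in Sema5a alone. The E-box letters CAGATG, searched on both strands, were in 8.33% of the 60, beside 14.6%, CAGGTG in 11.7%, beside 19.7%, and CAGCTG in 15%, beside 15.6%. A match of letters is a description of the window and was not tested as a binding site.

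Some guidance genes varied within hippocampus along with the mean of the dentate granule cell markers. Of the 10 markers of that list tested between regions 5 were higher and 3 lower in hippocampus. Slopes were fitted in hippocampus with limma as log2 change per 1 log2 unit of the mean of the marker list, with the 4 groups in the fit. Of 48 genes 25 had a called slope, 13 positive and 12 negative, beside 19.4% of all tested genes. Sema5a had a slope of 1.37 ± 0.10 (SE, n = 32 arrays, limma adjusted p = 3.3e-11), Epha7 of 1.30 ± 0.13 and Epha4 of 0.89 ± 0.12. Plxnd1, with -1.17 ± 0.15, Sema3a, with -1.06 ± 0.14, and Efna5, with -1.50 ± 0.22, went down as the dentate markers went up. Of the 25 genes 24 also differed between regions, 20 with the same sign as the slope and 4 with the opposite one, namely Ephb1, Efna1, Efna3 and Sema4g. This split was not made over all tested genes, so it cannot be read as particular to guidance genes. Nor was it made without the array that goes against its label.

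The count of called slopes depended on hippocampus Tg2576 PF-04447943 replicate 1, which is lowest in dentate markers. Without it 12 genes had a called slope, 4 positive and 8 negative, beside 8.03% of all tested genes. Sema5a was then at 1.08, Epha7 at 1.25, Epha4 at 0.56, Plxnd1 at -1.17, Sema3a at -0.82 and Efna5 at -1.34, each still past the threshold, while Epha6 was at 0.57 (limma adjusted p = 0.069). With the myelin markers in the same fit, a setting added after the data were seen, 9 genes were called, beside 4.06% of all tested genes.

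**Figure D3:**
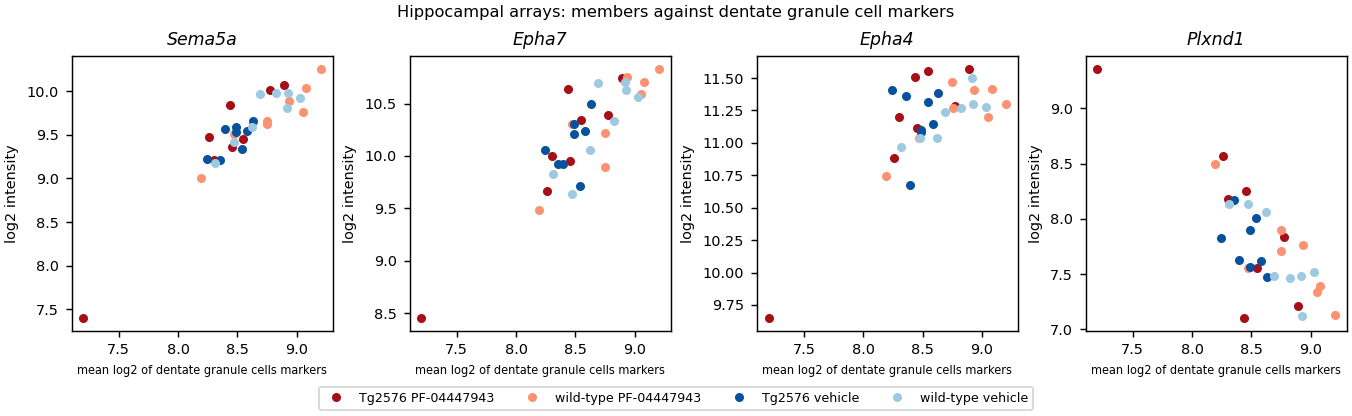
Log2 intensity of Sema5a, Epha7, Epha4 and Plxnd1 on the 32 hippocampal arrays against the mean log2 level of the dentate granule cell markers, coloured by genotype and treatment. The point at a marker mean of 7.20 is Tg2576 PF-04447943 replicate 1, and the slopes without it were 1.08, 1.25, 0.56 and -1.17.

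Myelin markers gave a narrower set. Over all 32 hippocampal arrays 21 genes had a called slope on the myelin marker mean, 12 positive and 9 negative, beside 17.5% of all tested genes. Without Tg2576 PF-04447943 replicate 1, the array with the lowest myelin mean of 9.48, 3 genes were called, all positive, beside 1.54%. They were Plxnb3, a class B plexin found in oligodendrocytes, at 0.63 ± 0.11 (SE, limma adjusted p = 0.000598), Efnb3 at 0.43 and Sema6d at 0.39. The same 3 were called when the dentate markers were in the fit with all arrays, beside 2.55% of all tested genes. In prefrontal cortex the called slopes were those of Plxnb3 (0.47 ± 0.09, SE, limma adjusted p = 0.000766), Ephb1 (0.55), Sema3g (0.66), Sema5b (0.63) and Efnb3 (0.84), beside 4% of all tested genes. Over all tested genes 517 slopes were called there. Leaving out Tg2576 PF-04447943 replicate 2 gave 12 guidance genes and 2159 in all, leaving out replicate 3 of that group gave 2 and 220, and leaving out wild-type PF-04447943 replicate 2 or Tg2576 vehicle replicate 7 gave 3 guidance genes and 244 or 328 in all.

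In prefrontal cortex the striatal marker mean went with 19 of 48 genes, 7 positive and 12 negative, beside 28.4% of all tested genes. This slope was added after the range of the striatal markers had been seen. Efnb3 had a slope of 0.32 ± 0.03 (SE, n = 32 arrays, limma adjusted p = 6.1e-09) and Nrp2 of 0.37 ± 0.06. Efna5 had -0.29 ± 0.03, Sema7a -0.26 ± 0.04, Ephb6 -0.24 and Ephb3 -0.20 ± 0.03. The cortical spread of these 6 genes therefore moved with the striatal markers, and the highest cortical Efnb3 and Nrp2 levels and the lowest Efna5, Ephb3, Ephb6 and Sema7a levels were all on wild-type vehicle replicate 5.

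**Figure D4:**
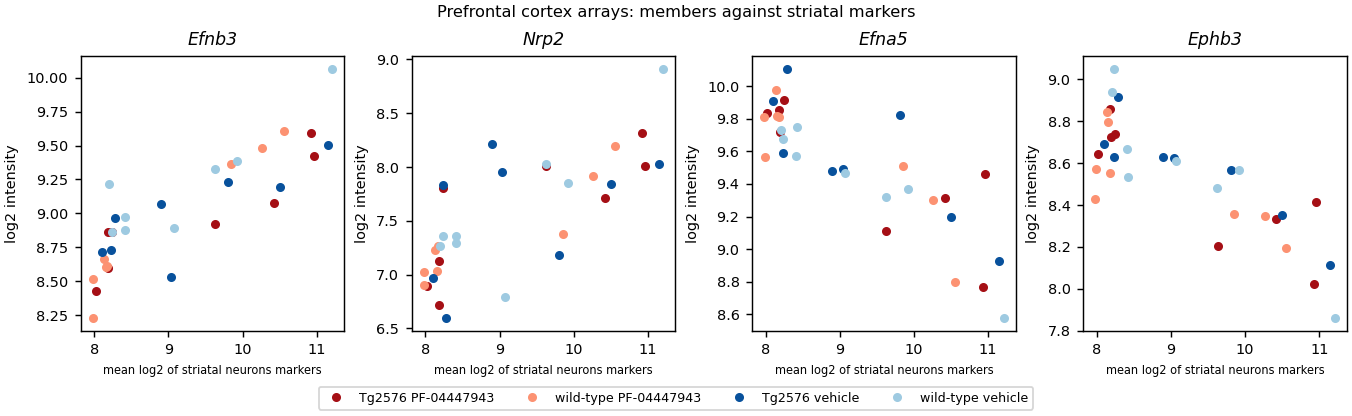
Log2 intensity of Efnb3, Nrp2, Efna5 and Ephb3 on the 32 prefrontal cortex arrays against the mean log2 level of the striatal neuron markers, coloured by genotype and treatment. Efnb3 and Nrp2 climb with the markers and Efna5 and Ephb3 go down, and the point at a marker mean of 11.21 is wild-type vehicle replicate 5.

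Whether the amyloid precursor transgene alters guidance genes was asked in each region over both treatments, with 16 arrays per genotype. In hippocampus 0 of 48 genes passed by limma, beside 0.0925% of all tested genes, and 7 had an unadjusted p under 0.05, beside 8.13% of all tested genes. Efnb3 had the smallest p. Its lowest, median and highest levels were 9.57, 10.22 and 10.52 in Tg2576 mice and 10.10, 10.41 and 10.67 in wild-type mice, largely overlapping. The difference was -0.23 ± 0.07 (SE, limma adjusted p = 0.339), and on 4 of 16 Tg2576 arrays the level exceeded the mean of wild-type mice given the same treatment. Sema6d followed at -0.17 ± 0.06 (SE, limma adjusted p = 0.499), with levels of 10.37, 10.86 and 11.15 in Tg2576 mice and 10.74, 11.02 and 11.26 in wild-type mice.

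Both are genes with a called myelin slope. The myelin marker mean was 10.85 ± 0.57 and 10.91 ± 0.19 (SD, n = 8 each) in Tg2576 mice under PF-04447943 and vehicle, against 11.05 ± 0.35 and 11.08 ± 0.19 in wild-type mice, and the dentate marker mean was 8.36 ± 0.51 and 8.47 ± 0.13 in Tg2576 mice, against 8.80 ± 0.34 and 8.73 ± 0.25 in wild-type mice. Without Tg2576 PF-04447943 replicate 1 Efnb3 was at -0.19 and Sema6d at -0.13. With the dentate marker mean as a covariate, added after the data were seen, Efnb3 was at -0.13 and Sema6d at -0.08. The part of these markers in the difference was not tested further.

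Taken by treatment, 0 guidance genes passed by limma for Tg2576 against wild-type in hippocampus. Under PF-04447943 Epha3 was at -0.26 and Nrp1 at -0.21 (limma adjusted p = 0.874 for both). There 0% of all tested genes were called, and 1 guidance gene had an unadjusted p under 0.05, beside 5% of all tested genes. Under vehicle Efnb3 was at -0.27 and Sema6d at -0.23 (limma adjusted p = 0.811 for both), beside 0.00771% of all tested genes called, and 4 guidance genes had an unadjusted p under 0.05, beside 5.62%.

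In prefrontal cortex 0 of 48 genes passed between genotypes, beside 0.0464% of all tested genes, and 2 had an unadjusted p under 0.05, beside 12.2%. Sema6a, a ligand of class A plexins, was at 7.02, 7.27 and 7.53 in Tg2576 mice, against 7.20, 7.32 and 7.74 in wild-type mice. Its difference was -0.12 ± 0.05 (SE, limma adjusted p = 0.359), with 2 of 16 Tg2576 arrays above the mean of wild-type mice given the same treatment. Efnb2 was at 9.86, 10.06 and 10.32 in Tg2576 mice and 9.72, 9.94 and 10.48 in wild-type mice, a difference of 0.13 ± 0.06 (SE, limma adjusted p = 0.369) with 13 of 16 arrays above. Under PF-04447943 Efnb2 (0.21) and Sema6a (-0.15) had the smallest p (limma adjusted p = 0.99 for both), and under vehicle Sema4a (-0.29, limma adjusted p = 0.41) and Sema3f (-0.27). By limma 0 guidance genes and 0% of all tested genes were called under either treatment. An unadjusted p under 0.05 was found for 3 guidance genes under PF-04447943, beside 3.68% of all tested genes, and for 1 under vehicle, beside 12.1%.

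What PF-04447943 alters was asked over both genotypes, with 16 arrays per treatment. In hippocampus 0 of 48 genes passed by limma, beside 2.34% of all tested genes, and 7 had an unadjusted p under 0.05, beside 21.6%. Plxnb1, the Sema4d receptor, had the smallest p. Its levels were 9.63, 9.79 and 9.98 under PF-04447943, against 9.69, 9.97 and 10.07 under vehicle. The difference was -0.14 ± 0.04 (SE, limma adjusted p = 0.0587), and 3 of 16 treated arrays lay above the vehicle mean of their genotype. Epha8, a low-level EphA receptor gene, had levels of 5.86, 6.33 and 6.64 under PF-04447943 and 6.22, 6.56 and 6.93 under vehicle, a difference of -0.25 ± 0.08 (SE, limma adjusted p = 0.0664) with 4 of 16 arrays above.

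The signal range of the arrays, the interquartile range of their log2 values, was 3.60 ± 0.11 in Tg2576 and 3.65 ± 0.06 in wild-type hippocampus under PF-04447943, against 3.52 ± 0.12 and 3.52 ± 0.08 under vehicle (SD, n = 8 each). With it as a covariate Plxnb1 was at -0.07 (limma adjusted p = 0.895) and Epha8 at -0.13 (limma adjusted p = 0.911). With array weights both passed, Plxnb1 at -0.13 (limma adjusted p = 0.0482) and Epha8 at -0.27 (limma adjusted p = 0.0437), where 577 genes in all passed, against 303 without weights. Leaving out any 1 of 8 of the 32 arrays brought 1 or both past the threshold. With the mean of the probe sets of Plxnb1 its difference was -0.04 (limma adjusted p = 0.57).

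By genotype, 0 guidance genes passed by limma for PF-04447943 in hippocampus. In Tg2576 mice Sema4b was at 0.15 and Plxnb1 at -0.13 (limma adjusted p = 0.391 and 0.399), with 0% of all tested genes called and 4 guidance genes at an unadjusted p under 0.05, beside 11.1%. In wild-type mice Epha8 was at -0.38 ± 0.11 (SE, limma adjusted p = 0.161) and Epha2 at -0.24, beside 0.0386% of all tested genes called, and 3 guidance genes had an unadjusted p under 0.05, beside 13.6%. Epha8 averaged 6.39 ± 0.25 and 6.52 ± 0.16 in Tg2576 mice under PF-04447943 and vehicle, against 6.20 ± 0.24 and 6.58 ± 0.24 in wild-type animals (SD, n = 8 per group). The drug by genotype difference itself was 0.26 ± 0.15 for Epha8 and 0.23 ± 0.14 for Efnb1 (SE, limma adjusted p = 1 for both), and 0 of 48 genes and 0% of all tested genes passed, with 0 of the 48 and 2.78% of all tested genes at an unadjusted p under 0.05.

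In prefrontal cortex 0 of 48 genes passed for the drug over both genotypes, beside 0.00773% of all tested genes, and 0 had an unadjusted p under 0.05, beside 2.33%. Plxnb3 was at -0.11 ± 0.06 and Ephb4 at -0.08 ± 0.05 (SE, limma adjusted p = 1 for both), with 5 of 16 treated arrays above the vehicle mean for each. Sema4a, a class 4 semaphorin also known from immune cells, had the largest drug by genotype difference of the 48. Its mean was 9.52 ± 0.35 and 9.18 ± 0.28 in Tg2576 mice under PF-04447943 and vehicle, against 9.22 ± 0.29 and 9.48 ± 0.26 in wild-type animals (SD, n = 8 per group). The drug by genotype difference was 0.59 ± 0.20 (SE, limma adjusted p = 1). It did not pass, 0 of 48 genes and 0% of all tested genes did, and 2 of the 48 had an unadjusted p under 0.05, beside 3.31%. In Tg2576 mice alone Sema4a (0.34) and Efnb1 (0.15) had the smallest p, and in wild-type mice Efnb2 (-0.17) and Nrp1 (-0.29), with limma adjusted p of 0.999 and 1. By limma 0 guidance genes and 0% of all tested genes were called in either genotype, and 1 guidance gene had an unadjusted p under 0.05 in each, beside 3.01% of all tested genes in Tg2576 mice and 2.52% in wild-type mice.

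**Figure D5:**
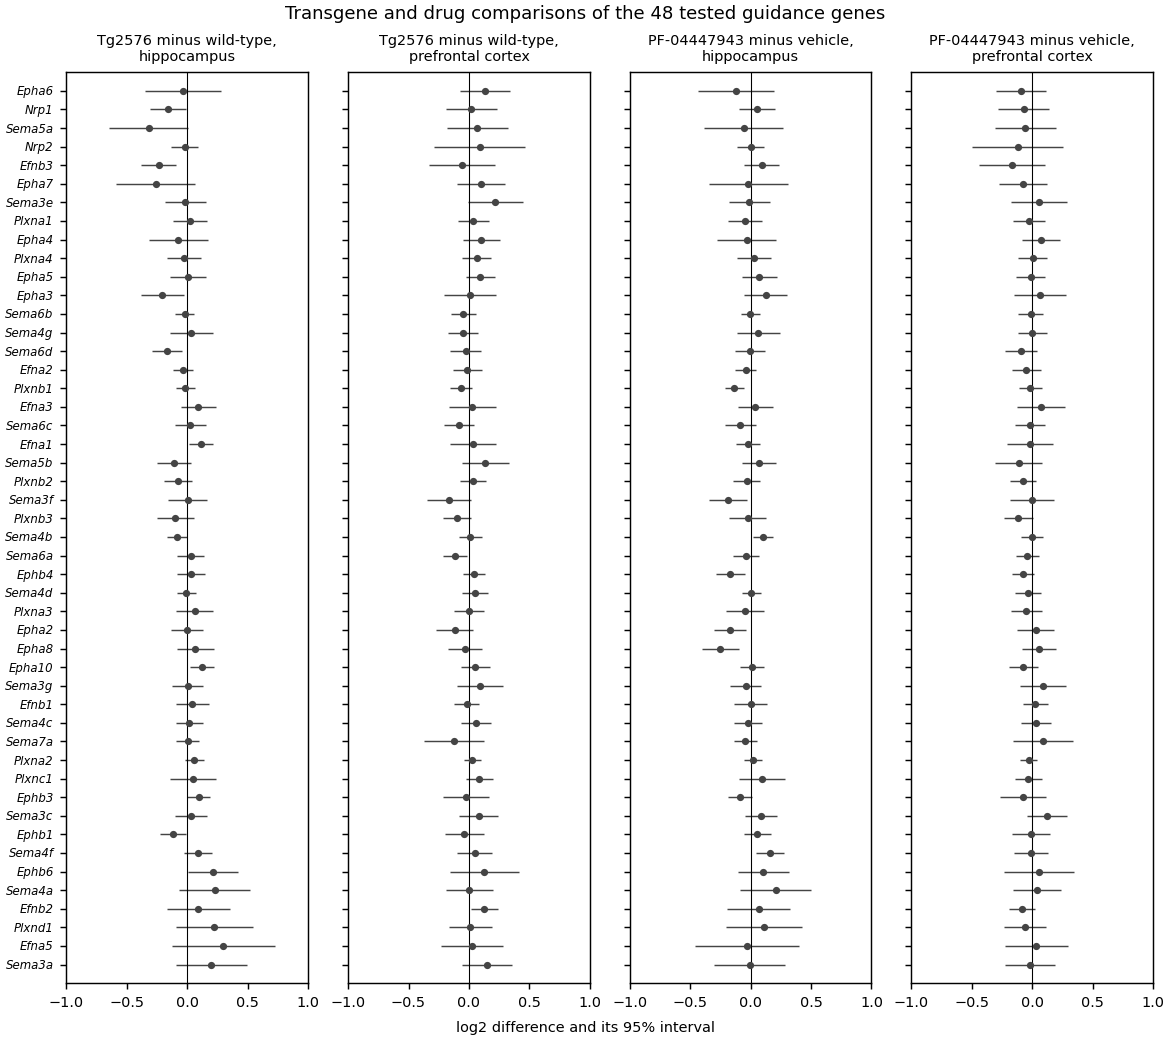
Log2 differences of the 48 tested guidance genes for Tg2576 minus wild-type and for PF-04447943 minus vehicle, in hippocampus and prefrontal cortex (16 arrays per side). Bars are 95% intervals by a normal approximation to the limma standard error. No gene passed in any panel, and the differences lie between -0.32 and 0.30.

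Whether these effects differed between regions was tested directly. For the transgene 0 of 48 genes and 0% of all tested genes passed by limma, with 0 of the 48 at an unadjusted p under 0.05, beside 7.04%. Sema5b (-0.25 ± 0.12, SE) and Sema6a (0.15 ± 0.08, SE) had the smallest p (limma adjusted p = 0.68 for both). For the drug 0 of 48 passed by limma, beside 0.00772% of all tested genes, and 1 had an unadjusted p under 0.05, beside 9.72%. Epha8 differed by -0.31 ± 0.11 (SE, limma adjusted p = 0.281), with -0.25 in hippocampus and 0.06 in prefrontal cortex, and Epha2 by -0.20 ± 0.11 (SE). With array weights the Epha8 difference was -0.38 (limma adjusted p = 0.0492), and 122 genes in all passed, against 1 without weights.

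A gene that misses the threshold may still differ. The 95% intervals, here and above, use a normal approximation to the limma standard error and are slightly narrow. For Nrp1 the 95% interval of the transgene difference was -0.31 to -0.01 in hippocampus and -0.19 to 0.23 in prefrontal cortex (limma adjusted p = 0.606 and 0.95), and for Nrp2 it was -0.13 to 0.09 in hippocampus and -0.29 to 0.47 in prefrontal cortex. The interval of the drug difference in hippocampus and in prefrontal cortex was -0.09 to 0.20 and -0.28 to 0.14 for Nrp1, and -0.11 to 0.11 and -0.50 to 0.26 for Nrp2. For the 48 genes the standard errors ran from 0.04 to 0.22 in each hippocampal comparison of 16 against 16 arrays and from 0.04 to 0.19 in prefrontal cortex.

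Other genes of the pathways lay on both sides of the regional comparison. For each list below the share over all tested genes was 33% higher and 39% lower. Of 37 tested effectors that carry plexin and Eph signals to the cytoskeleton, 15 were higher and 15 lower in hippocampus. Their median was -0.02, beside -0.02 over all genes. Ngef, which encodes the Eph effector ephexin, was at -1.68, the plexin-binding GTPase gene Rnd1 at -1.55, and the semaphorin signalling protein gene Dpysl3 at 0.64. Of 16 tested co-receptors and sheddases 3 were higher and 5 lower, among them Itgb1 at -0.21, a subunit of the integrin that Sema7a binds, and Cntn2, an axonal adhesion molecule, at 0.37.

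Of 21 tested genes of other guidance families, the netrins, slits and their receptors, 13 were higher and 8 lower. Of all tested genes 33% were higher and 39% lower. The list median was 0.43, beside -0.02 over all genes. Slit1, a repellent ligand, was at 1.80, Unc5a, a netrin receptor, at 0.82, and Unc5d, another of that family, at -1.06. For the transgene 0 genes of these 3 lists passed in either region. For the drug in hippocampus Vav2, an exchange factor recruited by Eph receptors, was lower by 0.22 (limma adjusted p = 0.015). Erbb2, a partner of Plxnb1, was lower by 0.20 (limma adjusted p = 0.0436), where 2.34% of all tested genes were called. Vav2 and Erbb2 were not examined with the signal range as a covariate. In prefrontal cortex 0 genes of the 3 lists passed, beside 0.00773% of all tested genes.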

How the data were processed

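RNA of 64 samples was hybridised to Affymetrix microarrays for mouse with 45101 probe sets. The deposited intensity values are linear and were made by the authors with RMA, per the submitters' processing notes, whose software version is not given in the sources used here. They ran from 5.87 to 34088.93 and were converted to log2 here. Gene symbols came from the platform annotation updated through RefSeq: 34945 probe sets had 1 symbol, 932 several and 9160 none, and 64 were controls. Each gene kept its probe set with the highest mean. Genes with a mean under the 40th percentile of probe sets were left out (log2 5.93 over both regions, 5.94 in hippocampus, 5.91 in prefrontal cortex), which left 12954, 12966 and 12932 genes.

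Models were fitted with limma 3.58.1 in R 4.3.3 with the package data.table (1.17.8), with 8 groups in 1 fit for the regions and 4 groups per region otherwise, and two-sided p-values were adjusted by Benjamini-Hochberg over every gene in the fit. Figures were drawn with Python 3.11.15, pandas 2.3.3, numpy 2.4.6 and matplotlib 3.10.9. The fits were tested on simulated data. The members, the marker and pathway lists and the tests were chosen with earlier results of these data known. The genes named were, for the regions, the 12 largest differences each way among called genes, elsewhere the called ones or the 2 with the smallest p, up to 6 slopes each way, and both neuropilins. Other genes were named after their values were seen. No label says what a replicate number stands for. The numbers were not used as pairs, since not every same-numbered pair correlated over 0.1. Alternatives were other filters, normalizations, array weights, covariates, a replicate block and leaving out each array. Sequences came from RefSeq on GRCm38.p6.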

Additional observations from a re-analysis of the deposited data

Results flagged for a closer look

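Single arrays lay far from the other 7 of their group in 32 of 328 sets, each set being 1 of 41 named genes in 1 group of 8. The gap to the nearest array, over the range of the group, was above Dixon's 95% critical value for 8 samples, and chance gives about 1 in 20 sets.

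Hippocampus Tg2576 PF-04447943 replicate 1 accounted for 11. It was high for Efna3 (10.86, nearest array 10.21), Efnb1 (8.65, nearest 8.04), Ephb6 (10.80, nearest 9.63), Sema4a (10.64, nearest 8.96) and Sema4c (7.71, nearest 7.29). It was low for Epha4 (9.65, nearest 10.88), Epha6 (6.74, nearest 8.28), Epha7 (8.45, nearest 9.67), Plxnb3 (8.05, nearest 8.56), Sema3c (8.48, nearest 9.03) and Sema5a (7.39, nearest 9.21). The same array had the lowest dentate and myelin marker means in hippocampus, 7.20 and 9.48.

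Prefrontal cortex wild-type vehicle replicate 5, with the highest striatal marker mean of 11.21, was high for Efnb3 (10.07, nearest 9.39). It was low for Efna5 (8.58, nearest 9.32), Epha4 (9.52, nearest 10.14), Ephb6 (8.73, nearest 9.78), Sema4f (9.37, nearest 9.88) and Sema7a (9.72, nearest 10.66). The part of these markers in the levels was not tested here beyond the slopes given above.

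In the other cortical groups, Tg2576 PF-04447943 replicate 2 was high for Efna3 (10.74) and Sema4b (7.95), wild-type PF-04447943 replicate 8 was high for Plxna3 (8.32) and low for Sema4f (9.32), and Tg2576 vehicle replicate 6 was low for Efna3 (9.17) and replicate 4 high for Efnb1 (8.46). In hippocampus, Tg2576 vehicle replicate 5 was low for Epha4 (10.68), replicate 8 low for Plxnb1 (9.69) and replicate 1 high for Sema3g (7.23), and wild-type PF-04447943 replicate 1 was high for Efnb2 (9.87). Wild-type vehicle replicate 5 there was high for Epha3 (8.73) and Sema3c (9.26), and replicate 1 was low for Epha5 (9.76) and Plxna4 (9.42) and high for Sema3f (10.75).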

How the results depend on the processing

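Arrays carry no depth, and Epha8 and the other genes near the filter level are limited by signal over background. Over 15 alternative settings and the leaving out of each array, 0 of 137 values reversed. These belong to the genes picked by the naming rule for each comparison. Across these values and settings the threshold was lost 54 times and gained 19 times. The regional differences of Sema3f, Epha2 and Epha8 were not among the 137. Of all 48 regional differences 31 lay above 0, against 29 with the signal range as a covariate, so not every sign was kept. The regional counts stayed between 39 and 46 genes, and those within a condition within 1.5 times. The number of guidance genes tested changed with the filter, so these counts do not share 1 denominator. The transgene counts were 0 under every setting run, as were the drug counts but for those that follow. For the drug in hippocampus, where 0 guidance genes and 303 genes in all were called, no filter gave 2 (852 in all), array weights 2 (577), an adjusted p threshold of 0.10 gave 2 (960), the replicate block 1 (743) and the dentate marker mean in the fit (an alternative chosen with the data seen) 1 (416). Leaving out 1 array gave 0 to 2, with 1 or 2 without Tg2576 PF-04447943 replicates 3, 4 and 8, Tg2576 vehicle replicates 5, 6 and 8 and wild-type vehicle replicates 5 and 7. Array weights gave 2 for the drug in wild-type hippocampus (Epha8 at -0.42, limma adjusted p = 0.0177) and 1 for the drug by region. The dentate slope counted 9 genes and the hippocampal myelin slope 3 with both marker means in 1 fit (added after seeing the data). Leaving out 1 array gave 12 to 26 and 3 to 23, both lowest without Tg2576 PF-04447943 replicate 1. The cortical myelin slope counted 3 genes under the stricter filter, 1 after quantile normalization, 9 with arrays centred, 19 with array weights and 3 with the signal range as a covariate, and 2 to 12 when 1 array was left out. The cause was not tested.

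With the replicate number as a block, the drug in hippocampus gave 1 gene, Plxnb1 (-0.14, limma adjusted p = 0.0466), and no other count of guidance genes moved by over 1.5 times. Same-numbered samples of the regions correlated over 0.1 in 20 of 32 pairs (-0.257 to 0.539). A hippocampal sample correlated best with its own number in 18 of 32 cases, 6 of 8 in each condition but PF-04447943-treated Tg2576 mice, where it was 0 of 8. Within a region, same-numbered samples of different conditions had a mean correlation of -0.106 to 0.325, depending on the number and the region. A shared mouse and another effect tied to the number cannot be told apart here, and the labels state neither.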

Other observations

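Hippocampal and cortical samples with the same group and number were set side by side, although no label says that such a number stands for 1 mouse. For each of the 48 genes the deviations from the group means were correlated between regions over 32 such pairs, with 100000 resamples. The resamples shuffled pairs across conditions, although deviations were taken within groups, so the permutation p-values may be too small. Only the 48 genes were taken, so no share over all tested genes stands beside the calls. The median Pearson r was 0.01. Epha10 had r = 0.597 (permutation p = 0.00036, adjusted 0.00864) and Spearman rho = 0.581 (permutation p = 0.00075, adjusted 0.018), and r = 0.549 without the 2 pairs farthest from the median in hippocampus. Sema3f had r = -0.643 (permutation p = 8e-05, adjusted 0.00384) and rho = -0.635 (permutation p = 0.00015, adjusted 0.0072), and r = -0.632 without the farthest 2. The Sema3f level is that of the probe set whose regional sign its 2 others opposed. Plxnd1 (r = 0.527, permutation p = 0.00194, adjusted 0.031) and Sema4g (r = 0.499, permutation p = 0.00367, adjusted 0.044) passed by r. By rho they did not, with 0.437 (permutation p = 0.0137, adjusted 0.132) and 0.488 (permutation p = 0.00493, adjusted 0.0789), and r without the farthest 2 was 0.406 and 0.379.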
